A study of Mus musculus with 4 samples.

Results

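The 10 genes described here build the cytoskeleton and the cell contacts of the gut epithelium: the keratins *Krt8*, *Krt18*, *Krt19* and *Krt20*, the adhesion molecule *Epcam*, the claudins *Cldn3*, *Cldn7* and *Cldn15*, the tight junction protein *Ocln* and its scaffold *Tjp1*. They were chosen by name as keratin and junction genes, and all 10 were found among the 19339 genes measured. RNA-seq was performed on small intestinal TCRαβ+CD8αα+ IELs, T cells that live between epithelial cells and carry the CD8αα homodimer. These cells were sorted as CD45+CD4-TCRβ+CD8α+CD8β-, and the RNA of 3 mice of the same genotype went into each of 4 libraries. Both groups were C57BL/6 mice homozygous for a loxP-flanked *Kdm6b* allele (*Kdm6b* fl/fl), which encodes an H3K27Me3 demethylase. The *Kdm6b* fl/fl libraries (replicates 1 and 3) are the controls, and the libraries labelled *Kdm6b* fl/fl-CD4Cre (replicates 1 and 3) came from mice that also carry the CD4Cre transgene, whose Cre acts in T cells from a late double-negative thymocyte stage. The age of the mice was not given in the sources used here. *Kdm6b* itself had 16.5 and 16.0 FPKM (fragments per kilobase of transcript, scaled to the mapped fragments of the library) in the *Kdm6b* fl/fl libraries, and 18.2 and 11.1 FPKM in those with the *Kdm6b* fl/fl-CD4Cre label. *Kdm6b* fl/fl-CD4Cre replicate 1 was thus no lower than the controls, and the fitted log2 difference was -0.18 ± 0.29 (SE) with an adjusted p of 0.886 by limma. The value covers the whole gene and does not test the deleted part, and the groups are named by their labels throughout.

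Keratins form intermediate filaments from pairs of an acidic type I chain (*Krt18*, *Krt19* or *Krt20*) and a basic type II chain (*Krt8* in this list), and these chains are typical of simple epithelia such as that of the intestine. *Krt20* marks differentiated cells of the villus. Claudins are membrane proteins whose strands seal the space between neighbouring cells or, as for *Cldn15*, form pores for small cations. *Ocln* is a second membrane protein of the tight junction, and *Tjp1* (also called ZO-1) ties both to the actin cytoskeleton. *Epcam* is an adhesion molecule of the lateral membrane that binds *Cldn7*. IELs contact this epithelium through integrin αEβ7, and its partner on epithelial cells is E-cadherin, encoded by *Cdh1*.

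The genes lie on 6 chromosomes of GRCm38.p6. *Krt8* (101996711 to 102004342) and *Krt18* (102028216 to 102032026) are neighbours on chromosome 15, with 23873 bases between them. *Krt20* (99428385 to 99438153), *Krt19* (100140810 to 100145926) and *Cldn7* (69964779 to 69967886) lie on chromosome 11. *Cldn3* (134986214 to 134987476) and *Cldn15* (136967869 to 136975845) lie on chromosome 5, *Tjp1* (65296165 to 65527850) on chromosome 7, *Ocln* (100496504 to 100552718) on chromosome 13 and *Epcam* (87635979 to 87651127) on chromosome 17. The 250 bases before the annotated start are printed, from RefSeq and on the strand of the gene, for the paired keratins *Krt8* and *Krt18*, for *Krt20* and for *Epcam*, as examples of the keratins and of the adhesion gene with the highest level. Capitals mark the short motifs searched on both strands.
*Krt8*, minus strand, chr15:102004343-102004592: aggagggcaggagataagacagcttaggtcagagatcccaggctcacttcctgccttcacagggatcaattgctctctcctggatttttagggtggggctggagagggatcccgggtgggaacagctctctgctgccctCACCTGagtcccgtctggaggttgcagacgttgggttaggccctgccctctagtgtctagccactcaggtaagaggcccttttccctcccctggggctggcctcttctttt
*Krt18*, plus strand, chr15:102027966-102028215: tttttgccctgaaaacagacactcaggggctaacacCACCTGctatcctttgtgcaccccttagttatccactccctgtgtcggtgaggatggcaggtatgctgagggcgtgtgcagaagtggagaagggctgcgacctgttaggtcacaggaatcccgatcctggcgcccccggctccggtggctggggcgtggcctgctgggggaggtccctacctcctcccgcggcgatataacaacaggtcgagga
*Krt20*, minus strand, chr11:99438154-99438403: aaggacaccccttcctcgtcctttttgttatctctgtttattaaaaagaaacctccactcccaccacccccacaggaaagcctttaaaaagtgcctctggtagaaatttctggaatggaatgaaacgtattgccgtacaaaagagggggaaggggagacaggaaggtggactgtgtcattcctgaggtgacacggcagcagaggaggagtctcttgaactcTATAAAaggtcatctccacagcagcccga
*Epcam*, plus strand, chr17:87635729-87635978: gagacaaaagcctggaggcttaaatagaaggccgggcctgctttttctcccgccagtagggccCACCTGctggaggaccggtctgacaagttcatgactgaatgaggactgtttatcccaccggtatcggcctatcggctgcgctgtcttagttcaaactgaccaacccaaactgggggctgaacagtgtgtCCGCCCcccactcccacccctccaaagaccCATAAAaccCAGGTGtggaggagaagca
The motifs were the GC box GGGCGG, bound by Sp and Klf factors, the E-box CAGGTG, bound by Snail and Zeb repressors of epithelial genes, the TATA box TATAAA, the sequence TTTATG, preferred by Cdx factors, and CAAAGTCCA, preferred by Hnf4 factors. RefSeq windows were found for 9 of the 10 genes (11 starts, with a second start for *Cldn7* and *Ocln*), and not for *Krt19*. The E-box was present before 5 of 11 starts, those of *Krt8*, *Krt18*, *Epcam*, *Cldn7* and *Ocln*, and in 17.2% of 32851 windows of the same length in the annotation. The GC box was present before 7 of 11 starts, all of them of junction genes or *Epcam*, and in 32.7% of all windows. The TATA box was found in the window of *Krt20*, 29 bases before the start, and in 12.4% of all windows. TTTATG was found for *Epcam*, 28 bases before the start, and in 10.8% of all windows, and CAAAGTCCA was found before 0 of 11 starts and in 0.384% of all windows. None of the matches printed above overlapped another.

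The sorted identity of the libraries was checked first. *Ptprc*, which encodes CD45, had 268 to 410 FPKM, *Cd3e* 304 to 505 FPKM and *Cd8a* 280 to 463 FPKM over the 4 libraries, and *Cd8b1* had at most 1.64 FPKM. *Cd4*, which the sort was to remove, had 30.6 and 10.1 FPKM in *Kdm6b* fl/fl replicates 1 and 3, and 30.5 and 3.17 FPKM in *Kdm6b* fl/fl-CD4Cre replicates 1 and 3. Total reads are unknown. The number of genes listed at 0 was 4531 and 2773 in *Kdm6b* fl/fl replicates 1 and 3, and 3119 and 1625 in *Kdm6b* fl/fl-CD4Cre replicates 1 and 3, an order opposite to that of most of the 10 genes below, and its part in their differences was not tested.

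All 4 keratins were measured in each of these T cell libraries, *Krt8* and *Krt19* at the highest levels. *Krt8*, the type II keratin, had 275 and 987 FPKM in *Kdm6b* fl/fl replicates 1 and 3, and 875 and 2518 FPKM in *Kdm6b* fl/fl-CD4Cre replicates 1 and 3. By level it ranked 313 and 66 among all genes in the controls, and 69 and 24 in the libraries labelled *Kdm6b* fl/fl-CD4Cre. *Krt19*, a type I keratin without a tail domain, had 227 and 743 FPKM in *Kdm6b* fl/fl replicates 1 and 3, and 669 and 2075 FPKM in *Kdm6b* fl/fl-CD4Cre replicates 1 and 3. For both genes *Kdm6b* fl/fl replicate 1 was lowest, *Kdm6b* fl/fl-CD4Cre replicate 3 was highest, and the groups overlapped because *Kdm6b* fl/fl replicate 3 lay above *Kdm6b* fl/fl-CD4Cre replicate 1. *Krt18*, the usual partner of *Krt8*, had 41.0 and 143 FPKM in the *Kdm6b* fl/fl libraries and 170 and 375 FPKM in those with the *Kdm6b* fl/fl-CD4Cre label, so that its groups did not overlap. *Krt20* was the lowest of the 4, with 13.3 and 49.1 FPKM in the *Kdm6b* fl/fl libraries and 38.0 and 78.5 FPKM in those with the *Kdm6b* fl/fl-CD4Cre label. Its groups overlapped. *Krt8* has an annotated processed pseudogene and an overlapping gene on the other strand, and the counting of strand was not given in the sources used here, so reads from these cannot be told apart from its own.

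*Epcam* had 94.5 and 229 FPKM in *Kdm6b* fl/fl replicates 1 and 3, and 187 and 457 FPKM in *Kdm6b* fl/fl-CD4Cre replicates 1 and 3. *Cldn7*, its binding partner, had 43.2 and 127 FPKM against 101 and 250 FPKM in the same order. In both genes *Kdm6b* fl/fl-CD4Cre replicate 1 lay between the control libraries. *Cldn3*, a sealing claudin, had 34.8 and 99.8 FPKM in the *Kdm6b* fl/fl libraries and 110 and 233 FPKM in those with the *Kdm6b* fl/fl-CD4Cre label, and the groups did not overlap. *Cldn15*, the cation pore, had 23.8 and 53.4 FPKM in the *Kdm6b* fl/fl libraries and 53.0 and 130 FPKM in those with the *Kdm6b* fl/fl-CD4Cre label, with *Kdm6b* fl/fl replicate 3 and *Kdm6b* fl/fl-CD4Cre replicate 1 nearly equal. An annotated antisense gene overlaps *Cldn3* and shares the limit given for *Krt8*.

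The tight junction genes were lower. *Ocln* had 4.74 and 18.6 FPKM in *Kdm6b* fl/fl replicates 1 and 3, and 17.8 and 41.2 FPKM in *Kdm6b* fl/fl-CD4Cre replicates 1 and 3. *Tjp1* had 0.45 and 1.66 FPKM in the control libraries and 1.22 and 2.77 FPKM in those with the *Kdm6b* fl/fl-CD4Cre label, and was the only gene of the 10 below 1 FPKM in any library. Both genes repeated the order of the libraries seen for *Krt8*, and the groups of both overlapped. As group means, *Krt8* had 631 ± 503 FPKM (SD, n = 2) for *Kdm6b* fl/fl and 1696 ± 1162 FPKM (SD, n = 2) for *Kdm6b* fl/fl-CD4Cre, *Epcam* had 162 ± 95.4 and 322 ± 191 FPKM, and *Cldn3* had 67.3 ± 46.0 and 171 ± 87.3 FPKM.

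**Figure D1:**
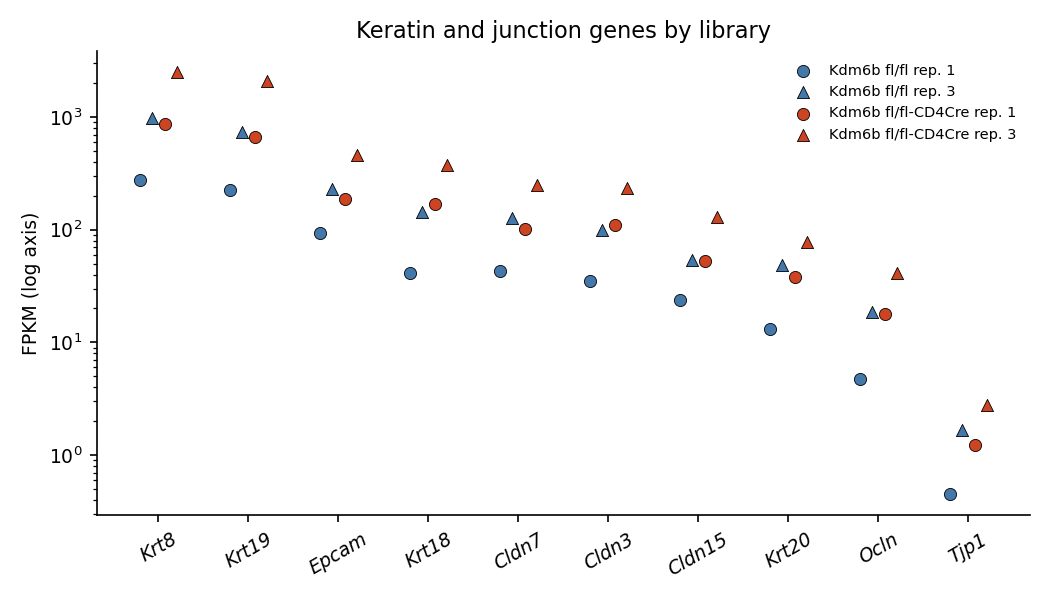
FPKM on a log axis of the 10 keratin and junction genes, ordered by their mean, with 1 point per library: circles are replicate 1 and triangles replicate 3, blue the *Kdm6b* fl/fl libraries and red those with the *Kdm6b* fl/fl-CD4Cre label. In all 10 genes *Kdm6b* fl/fl replicate 1 is lowest and *Kdm6b* fl/fl-CD4Cre replicate 3 highest, from 275 to 2518 FPKM for *Krt8* and from 0.45 to 2.77 FPKM for *Tjp1*.

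FPKM is scaled to transcript length, so levels can be set beside each other between genes. By mean FPKM over the 4 libraries the order was *Krt8*, *Krt19*, *Epcam*, *Krt18*, *Cldn7*, *Cldn3*, *Cldn15*, *Krt20*, *Ocln* and *Tjp1*. Of the 9 neighbouring pairs in this order, 7 were in the same order in all 4 libraries. *Krt18* and *Cldn7* changed places in *Kdm6b* fl/fl replicate 1 (ratio 0.949), as did *Cldn7* and *Cldn3* in *Kdm6b* fl/fl-CD4Cre replicate 1 (ratio 0.92), so these neighbours did not differ beyond their spread over libraries. *Epcam* and *Krt18* kept their order, with a ratio that ranged from 1.10 to 2.30.

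While each gene varied 4.84 to 9.17 times between its lowest and highest library, the ratios between genes given here varied less. The FPKM ratio of *Krt8* to *Krt19* was 1.21 and 1.33 in *Kdm6b* fl/fl replicates 1 and 3, and 1.31 and 1.21 in *Kdm6b* fl/fl-CD4Cre replicates 1 and 3. The ratio of *Krt8* to its partner *Krt18* was 6.70 and 6.92 in the control libraries and 5.14 and 6.71 in those with the *Kdm6b* fl/fl-CD4Cre label. The ratio of *Cldn7* to *Epcam* ran from 0.457 to 0.553. *Krt20* followed the other keratins less closely, since the ratio of *Krt8* to *Krt20* was 20.1 to 23.0 in 3 libraries and 32.1 in *Kdm6b* fl/fl-CD4Cre replicate 3. The ratio of *Krt19* to *Krt20* ran from 15.1 to 26.4, and that of *Krt19* to *Epcam* from 2.40 to 4.54.

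Between the libraries labelled *Kdm6b* fl/fl-CD4Cre and the *Kdm6b* fl/fl libraries, all 10 genes had a positive log2 fold change (difference of group means of log2(FPKM + 1)), from 0.56 for *Tjp1* to 1.71 for *Krt18*. The keratins *Krt18*, *Krt19* and *Krt8* had the highest values (1.71, 1.52 and 1.51), followed by *Cldn3* (1.42), *Ocln* (1.41), *Cldn15* (1.2), *Cldn7* (1.09), *Krt20* (1.06) and *Epcam* (0.99). A value above 1 was reached by 8 of the 10 genes, against 6.2% of the 12009 genes tested, and a positive value by 50.1% of them. The median of the 10 genes was 1.30, and that of all genes tested 0.00097. In a bulk library more cells that express a gene and more RNA of it per cell cannot be told apart. None of these differences passed the test (0 of 10 at an adjusted p under 0.05 by limma, adjusted p = 0.755 to 0.792, with 0% of all genes called). With the replicate number as a block, which the labels do not explain, 9 of the 10 were called higher, as were 7.38% of all genes tested. At an unadjusted p under 0.05 there was 1 gene of the 10, *Krt18*, and 642 of all genes tested. The log2 fold change of *Krt18* had an SE of 0.65 and a 95% confidence interval of 0.07 to 3.34, and that of *Krt8* an SE of 0.75 and an interval of -0.36 to 3.38. Both libraries labelled *Kdm6b* fl/fl-CD4Cre lay above both *Kdm6b* fl/fl libraries in 2 of the 10 genes, *Krt18* and *Cldn3*, and in 18.4% of all genes tested.

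The count above 1 rested on single libraries. Without *Kdm6b* fl/fl replicate 1 it was 0 of 10 and the median log2 fold change 0.56, and without *Kdm6b* fl/fl-CD4Cre replicate 3 it was 1 of 10 (*Krt18*) and the median 0.63. Without *Kdm6b* fl/fl replicate 3 the median was 2.07 and without *Kdm6b* fl/fl-CD4Cre replicate 1 it was 1.90, with 9 of 10 genes above 1 in each case. The direction was positive for all 10 genes in each of these 4 fits. The number above 1 among all genes tested moved too. It was 292 without *Kdm6b* fl/fl replicate 1 and 313 without *Kdm6b* fl/fl-CD4Cre replicate 3. Without *Kdm6b* fl/fl replicate 3 it was 1215, and without *Kdm6b* fl/fl-CD4Cre replicate 1 it was 1242.

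Single libraries were therefore set against each other. *Kdm6b* fl/fl-CD4Cre replicate 1 exceeded *Kdm6b* fl/fl replicate 1 by a log2 difference above 1 in 8 of the 10 genes (7% of all genes tested), with a median of 1.5. *Kdm6b* fl/fl-CD4Cre replicate 3 exceeded *Kdm6b* fl/fl replicate 3 by more than 1 in 6 genes (7.18% of all), with a median of 1.16. The smallest differences were those of *Krt20* (0.67) and *Tjp1* (0.50). *Kdm6b* fl/fl-CD4Cre replicate 3 exceeded *Kdm6b* fl/fl replicate 1 by more than 1 in 10 genes (13.7% of all), with a median of 2.61. Against these, *Kdm6b* fl/fl-CD4Cre replicate 1 exceeded *Kdm6b* fl/fl replicate 3 by more than 1 in 0 genes (3.45% of all), and the median was -0.16. In that pair *Krt18* (0.25) and *Cldn3* (0.13) were above 0, and the other 8 genes below, down to -0.36 for *Krt20*. Within a genotype, *Kdm6b* fl/fl replicate 3 exceeded replicate 1 by more than 1 in 9 genes (6.5% of all), with a median of 1.62. *Kdm6b* fl/fl-CD4Cre replicate 3 exceeded replicate 1 by more than 1 in 9 genes (7.04% of all), with a median of 1.22. With 1 library on each side, none of these differences has a replicate check.

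**Figure D2:**
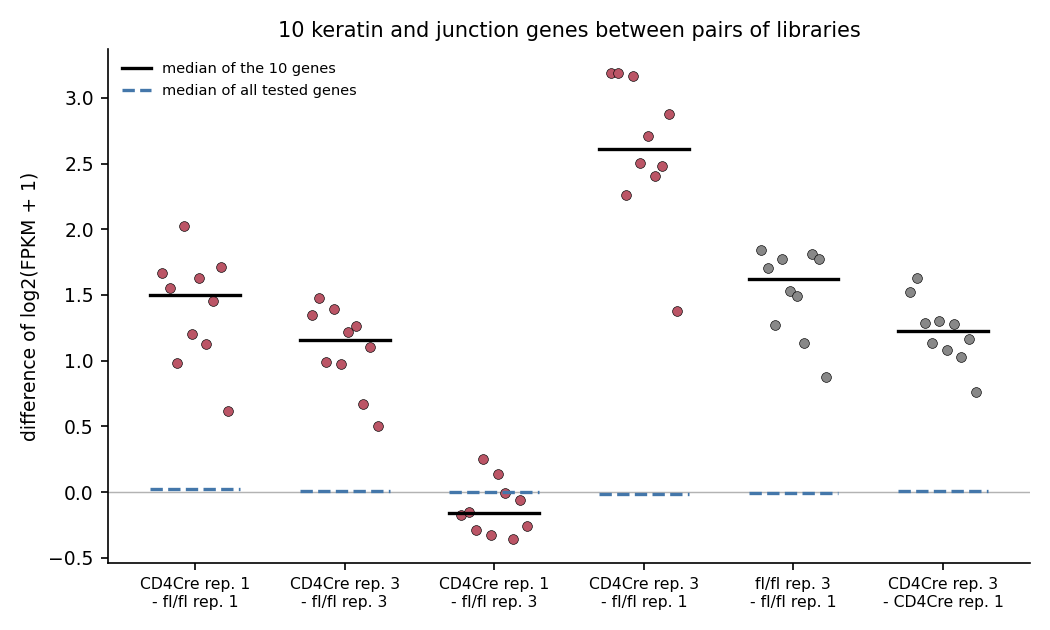
Differences of log2(FPKM + 1) between 2 libraries for the 10 keratin and junction genes, 1 point per gene, with the median of the 10 as a black line and that of all genes tested as a dashed blue line. Red points compare a library labelled *Kdm6b* fl/fl-CD4Cre with a *Kdm6b* fl/fl library, and grey points compare libraries of the same label. The medians are 1.5, 1.16, -0.16 and 2.61 between the labels, and 1.62 and 1.22 within them.

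The same question was put to other keratin and junction genes, a list of 93 genes of which 84 were in the files and 48 were tested, since the others were too low. Of the 48, 46 had a positive log2 fold change, 16 were above 1 (6.2% of all genes tested) and 0 below -1, with a median of 0.80. Without the filter, 74 of all 84 genes in the files were positive and 16 above 1, with a median of 0.41. Over all 19339 genes, 768 were then above 1, with a median of 0.035. The counts above 1 rested on single libraries: 1 of 48 was above 1 without *Kdm6b* fl/fl replicate 1 (median 0.38) and 4 of 42 tested without *Kdm6b* fl/fl-CD4Cre replicate 3 (median 0.37). Without *Kdm6b* fl/fl replicate 3 or *Kdm6b* fl/fl-CD4Cre replicate 1, 29 of 45 tested were above 1 (medians 1.13 and 1.38). The numbers above 1 among all genes in these fits are given with the 10 genes above. With the enterocyte marker covariate described below, 31 of 48 were positive and 1 was above 1. In that fit 352 of the 12009 genes tested were above 1. None was called by limma (0 of 48 at an adjusted p under 0.05, 6 at an unadjusted p under 0.05, against 642 of the 12009 genes tested), and 19 of the 48 were called higher with the replicate block, against 7.38% of all genes tested. The lowest library was *Kdm6b* fl/fl replicate 1 and the highest *Kdm6b* fl/fl-CD4Cre replicate 3 for 38 of the 48 genes, as for all 10 above, and for 22.1% of all genes tested. Both libraries labelled *Kdm6b* fl/fl-CD4Cre were higher than both control libraries in 18 of the 48 genes and lower in 1, against 18.4% and 18.6% of all genes tested. For *Krt78*, *Amotl2* and *Ildr1* (the last 2 named after their values were seen) both control libraries were below 1 FPKM, so the filter let them in through the other group and their positive sign and non-overlap carry no weight.

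Other keratins were mostly at trace levels, and 3 of 17 were tested. *Krt7*, a type II keratin of simple epithelia, had 3.85 and 24.3 FPKM in *Kdm6b* fl/fl replicates 1 and 3, and 17.8 and 49.6 FPKM in *Kdm6b* fl/fl-CD4Cre replicates 1 and 3, which gave 1.48 ± 0.86 (SE) on the log2 scale. *Krt23* and *Krt78* had log2 fold changes of 0.79 and 0.74. *Krt5* and *Krt14*, keratins of stratified epithelia, had at most 0.07 and 0.43 FPKM in any library, and are named after their values were seen. The highest value of any untested keratin was 1.07 FPKM, for *Krt15* in *Kdm6b* fl/fl-CD4Cre replicate 3.

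Among 7 other claudins tested, 4 were above 1, against 6.2% of all genes tested. *Cldn2*, a cation pore of the crypt, had 12.6 and 40.6 FPKM in the *Kdm6b* fl/fl libraries and 43.9 and 86.1 FPKM in those with the *Kdm6b* fl/fl-CD4Cre label, which gave 1.40 ± 0.59 (SE) on the log2 scale. *Cldn23* and *Cldn4* had log2 fold changes of 1.2 and 1.76. *Cldn10* went the other way, with 5.40 and 9.12 FPKM in the *Kdm6b* fl/fl libraries and 4.55 and 4.38 FPKM in those with the *Kdm6b* fl/fl-CD4Cre label, which gave -0.56 ± 0.34 (SE) on the log2 scale and an adjusted p of 0.757 by limma. The log2 value was -0.23 without *Kdm6b* fl/fl replicate 3 and -0.89 without *Kdm6b* fl/fl replicate 1. *Cldn10* was the 1 gene of the list with both libraries labelled *Kdm6b* fl/fl-CD4Cre below both controls, and is named here after its values were seen.

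The 15 tight junction scaffold and membrane genes tested had a median log2 fold change of 0.73, and 5 were above 1, against 6.2% of all genes tested. *Lsr*, a protein of tricellular junctions, had 14.8 and 44.1 FPKM in the *Kdm6b* fl/fl libraries and 40.4 and 97.8 FPKM in those with the *Kdm6b* fl/fl-CD4Cre label (log2 fold change 1.26). *F11r*, which encodes the junctional adhesion molecule JAM-A, had 13.8 and 22.9 FPKM against 32.1 and 50.4 FPKM (1.13), and *Tjp3*, a homologue of *Tjp1*, had 14.8 and 23.4 FPKM against 21.9 and 50.6 FPKM (0.81). The groups overlapped for *Lsr* and *Tjp3* and not for *F11r*.

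Of 11 adherens junction genes 3 were above 1, and of 8 desmosome genes 1, with medians of 0.73 and 0.79. Of all genes tested 6.2% were above 1, and 1 of 8 genes cannot be told apart from that share. *Cdh17*, the cadherin of intestinal epithelium, had 30.6 and 108 FPKM in the *Kdm6b* fl/fl libraries and 93.3 and 243 FPKM in those with the *Kdm6b* fl/fl-CD4Cre label (log2 fold change 1.37). *Ctnna1* and *Ctnnb1*, which encode α- and β-catenin, had 0.73 and 0.36, and *Ctnnb1* ran only from 41.2 to 62.5 FPKM over the 4 libraries. The plakophilin *Pkp3* had 52.3 and 34.2 FPKM in the *Kdm6b* fl/fl libraries and 49.5 and 45.2 FPKM in those with the *Kdm6b* fl/fl-CD4Cre label, so that *Kdm6b* fl/fl replicate 1 was the highest. *Perp* and *Jup*, further desmosome genes, had log2 fold changes of 0.44 and 0.66. Of 4 gap junction genes 2 were above 1, and *Gjb1*, *Gjb2* and the pannexin gene *Panx1* had 1.61, 0.37 and -0.13. *Panx1* and *Cldn10* were the 2 genes of the 48 with a negative value. After scaling the libraries to *Ptprc* and Cd3 genes *Panx1* had 0.28 and *Cldn10* -0.20, with 47 of 48 positive, and under quantile normalization 43 of 48 were positive. *Panx1* was also positive without *Kdm6b* fl/fl replicate 1 (0.24), without *Kdm6b* fl/fl-CD4Cre replicate 3 (0.086) and with the covariate (0.36), while *Cldn10* was negative in each of these fits.

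**Figure D3:**
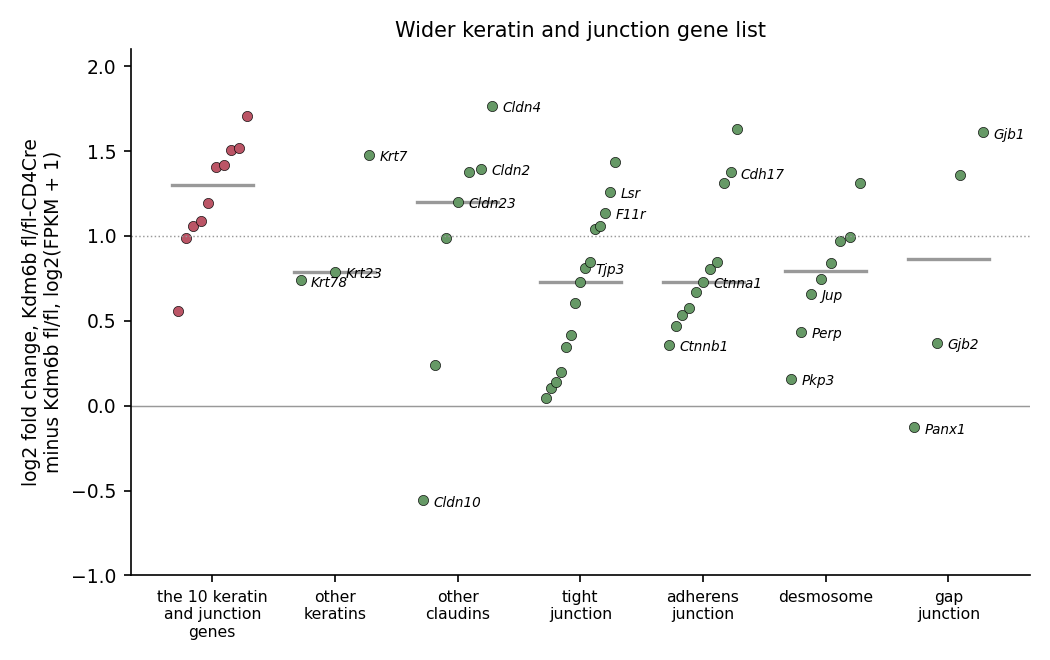
Log2 fold change of the 10 keratin and junction genes (red) and of the 48 tested genes of the wider list (green), libraries labelled *Kdm6b* fl/fl-CD4Cre against *Kdm6b* fl/fl, sorted within each group, with grey bars at the median and a dotted line at 1. The names mark the 3 genes with the highest mean FPKM in each group of the wider list, and *Cldn10*. Medians are 1.30 for the 10 genes and 0.73 to 1.2 for the groups of the wider list.

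*Cdh1*, the E-cadherin gene, had 23.9 and 35.1 FPKM in *Kdm6b* fl/fl replicates 1 and 3, and 28.6 and 75.7 FPKM in *Kdm6b* fl/fl-CD4Cre replicates 1 and 3, which gave 0.67 ± 0.48 (SE) on the log2 scale and -0.019 without *Kdm6b* fl/fl-CD4Cre replicate 3. *Itgae* encodes the αE chain of the integrin that binds E-cadherin. It had 383 and 301 FPKM in the control libraries, and 227 and 245 FPKM in those with the *Kdm6b* fl/fl-CD4Cre label. This gave -0.52 ± 0.20 (SE) on the log2 scale and an adjusted p of 0.755 by limma. The log2 value was -0.10 after scaling to *Ptprc* and Cd3 genes and -0.43 with the enterocyte marker covariate described below. It was -0.35 to -0.70 with each library left out. *Cdh1* was added to the named genes as the partner of *Itgae*. The ligand was lowest in *Kdm6b* fl/fl replicate 1, where the receptor was highest, as were *Ptprc*, *Cd3e* and *Cd8a*. The receptor was lowest in *Kdm6b* fl/fl-CD4Cre replicate 1, and the ligand highest in *Kdm6b* fl/fl-CD4Cre replicate 3.

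Lists of epithelial cell markers that share no gene with the 10 were examined beside them. All 12 enterocyte markers, brush border and lipid transport genes, were lowest in *Kdm6b* fl/fl replicate 1 and highest in *Kdm6b* fl/fl-CD4Cre replicate 3. This order held for 22.1% of all genes tested. The sum of the markers was 319 and 933 FPKM in *Kdm6b* fl/fl replicates 1 and 3, and 849 and 2415 FPKM in *Kdm6b* fl/fl-CD4Cre replicates 1 and 3. None of the markers was at 0, and 11 of 12 had a log2 fold change above 1, against 6.2% of all genes tested. The sum over the 10 keratin and junction genes was 757 and 2451 FPKM, and 2221 and 6161 FPKM, in the same order. Relative to the geometric mean of the enterocyte markers, the level of each of the 10 genes varied 1.14 to 1.70 times between libraries. With the mean of these markers as a covariate in limma, the median log2 fold change of the 10 genes was 0.10, with 6 of 10 positive and 0 above 1. In that fit 352 of the 12009 genes tested were above 1.

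Log2 fold changes above 1 were found for 7 of 7 goblet cell markers, 6 of 7 Paneth cell markers, 4 of 5 crypt and stem cell markers and 4 of 5 enteroendocrine and tuft cell markers, with 0 called by limma in each list. Of all genes tested, 6.2% were above 1 and 0% were called. The order of the 10 genes, lowest in *Kdm6b* fl/fl replicate 1 and highest in *Kdm6b* fl/fl-CD4Cre replicate 3, was found for 7 of 7 goblet, 6 of 7 Paneth, 6 of 6 crypt and stem cell and 3 of 8 enteroendocrine and tuft cell markers in the files. It was found for 22.1% of all genes tested. The Paneth cell markers had a geometric mean 7.66 times as high in *Kdm6b* fl/fl replicate 3 as in replicate 1, and 4.70 and 11.7 times as high in *Kdm6b* fl/fl-CD4Cre replicates 1 and 3. For the 10 keratin and junction genes these values were 3.16, 2.86 and 6.91. T cell identity genes had their highest level where the 10 genes were lowest. Their geometric mean was 487 and 346 FPKM in *Kdm6b* fl/fl replicates 1 and 3, and 357 and 208 FPKM in *Kdm6b* fl/fl-CD4Cre replicates 1 and 3, and 0 of 11 were lowest in *Kdm6b* fl/fl replicate 1. Their median log2 fold change was -0.52. It was -0.16 without *Kdm6b* fl/fl-CD4Cre replicate 3, -0.051 with the enterocyte marker covariate, and -0.096 after scaling to *Ptprc* and Cd3 genes, which are T cell genes themselves. Of the tested markers of B cells (3), myeloid cells (6), stroma and endothelium (5) and the T cell genes outside the sort (2), 0 had a log2 fold change above 1. Of all genes tested 6.2% did. The median log2 fold changes of these lists were -0.071, 0.46, -0.42 and -0.40 in the same order. Over all genes of these lists in the files (5, 6, 6 and 3), tested or not, the summed FPKM ran from 31.5 to 84.8, 312 to 715, 15.5 to 19.6 and 5.57 to 34.2. The myeloid sum was 447 and 312 FPKM in *Kdm6b* fl/fl replicates 1 and 3, and 505 and 715 FPKM in *Kdm6b* fl/fl-CD4Cre replicates 1 and 3. All 12 enterocyte markers shared the library order of the 10 genes, so the covariate and the ratios cannot test the part of epithelial RNA. Its part in the differences of the 10 genes was not tested.

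**Figure D4:**
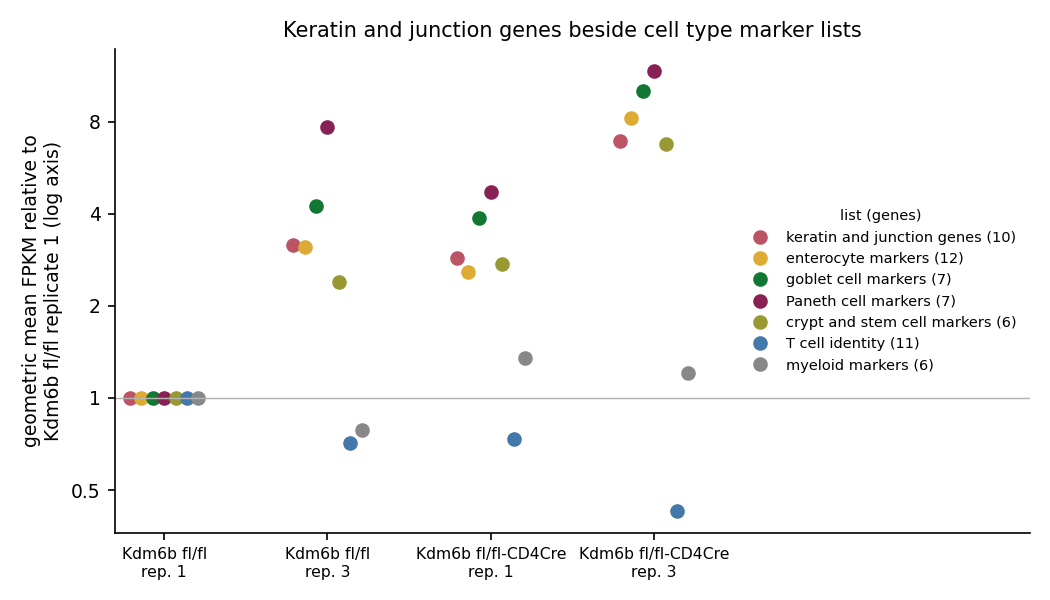
Geometric mean FPKM of the 10 keratin and junction genes and of 6 marker lists in each library, relative to *Kdm6b* fl/fl replicate 1, on a log axis, 1 point per list and library. The keratin and junction genes are at 3.16, 2.86 and 6.91 in the other libraries and the enterocyte markers at 3.12, 2.58 and 8.22, while T cell identity genes are at 0.711, 0.734 and 0.428.

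The genes outside these lists whose levels followed the 10 most closely over the 4 libraries were *Gimd1*, *Dcbld1*, *Ckmt1*, *Tcim* and *Myo1d*. The root mean square difference of their centred log2(FPKM + 1) from the mean profile of the 10 was 0.034 to 0.057, closer than any of the 10 themselves, which ranged from 0.084 (*Cldn7*) to 0.44 (*Tjp1*). *Ckmt1*, a mitochondrial creatine kinase, had 49.5 and 154 FPKM in the *Kdm6b* fl/fl libraries and 141 and 321 FPKM in those with the *Kdm6b* fl/fl-CD4Cre label. *Myo1d*, an unconventional myosin, had 3.53 and 11.3 FPKM against 9.68 and 25.7 FPKM. Of 11395 genes compared, 830 were closer to the mean profile than *Tjp1*, the farthest of the 10.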

How the data were processed

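RNA-seq of sorted small intestinal TCRαβ+CD8αα+ IELs was analysed in 4 libraries, 2 per genotype, each from the RNA of 3 mice. The deposited values are FPKM (2 decimals, 19339 genes), made by the authors by mapping to mm10 (HISAT and Bowtie2, with Bowtie2 2.2.5, RSEM 1.2.8 and GRCm38.p5 in the submitters' processing notes) and quantifying with RSEM. They depend on transcript length and on the other RNA in the library. Separate pools are the replicates.

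Symbols, coordinates and sequences came from RefSeq on GRCm38.p6, and 18467 identifiers matched a symbol. Values were used as log2(FPKM + 1) for 12009 genes that reached 1 FPKM in 2 or more libraries. The added 1 understates fold changes of low genes. Differences were tested with limma 3.58.1 (R 4.3.3, trended eBayes, 3.52 prior degrees of freedom) and Benjamini-Hochberg adjustment over all genes tested. The fit was tested on simulated data, where a change larger than any fitted for the 10 genes was not called and a far larger one mostly was. P-values measure the spread between pooled libraries only, and 0.333 is the smallest two-sided p that exact permutation of 2 against 2 libraries allows. Tables were handled with pandas 2.3.3 (Python 3.11.15).

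Genes named are the 10 keratin and junction genes, *Kdm6b*, sort checks and the 5 genes of closest profile. The 3 genes with the highest mean FPKM in each group of the wider list are named too. *Cdh1*, *Krt5*, *Krt14*, *Krt15*, *Cldn10*, *Amotl2* and *Ildr1* were added outside these rules. The genes and lists were chosen with earlier results of these data known. Alternatives were other pseudocounts, filters, scalings and limma settings, a replicate block, an epithelial covariate (enterocyte markers) and leaving out each library. Other assays of the study were not analysed here.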

Additional observations from a re-analysis of the deposited data

How the results depend on the processing

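The log2 fold changes of all 10 genes stayed positive under the pseudocounts, filters, scalings, limma without a trend and each library left out, except that *Tjp1* was not tested with the filter at 5 FPKM. With the epithelial covariate, *Cldn7*, *Epcam*, *Krt20* and *Tjp1* turned to -0.10, -0.092, -0.13 and -0.13, the median of the 10 was 0.10, 0 of the 10, 1 of the wider list and 352 of all genes were above 1, and 35 genes were called. With a replicate block, 9 of the 10 genes were called (all but *Tjp1*, adjusted p = 0.296 from limma), 19 of the wider list and 1019 of all genes, 886 of them higher (7.38% of the genes tested). Nothing in the labels says what equal numbers share, and with 2 pairs a correlation of 0.56 (across 12009 genes) between same-numbered libraries, each centred on its group, does not settle it. Above 1 were 1203 genes (25 of the wider list) with a pseudocount of 0.1, 1254 (25) with 0.01, and 1461 (29) after scaling to *Ptprc* and Cd3 genes, which raised the median of all genes to 0.38. Leaving out each library gave 292 to 1242 genes above 1, 1 to 29 of the wider list and 0 to 9 of the 10 genes, whose median was 0.56 to 2.07. The causes were not tested. Without a library, its group holds 1, which is assumed to vary like the other group. A count of reads behind each FPKM is unknown, which limits low genes such as *Tjp1* most.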
